A study of Mus musculus with 24 samples.

Results

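The effect of indole-3-acetic acid (IAA) on the transcriptome of BRD2-degron embryoid bodies was compared between day 2 and day 3. For each gene, the log2 difference between IAA and control cultures on day 2 was subtracted from the same difference on day 3. A positive difference means that the gene stood higher relative to its control on day 3 than on day 2, and a negative one that it stood lower. The comparison rests on 12 of the 24 libraries of the series, 3 in each of 4 groups, and the 2 daily effects share no library. The cells were the mouse embryonic stem line V6.5 with a degron on BRD2, so that auxin can trigger destruction of the tagged protein. All 4 groups received doxycycline (1 µg/ml, 18 h), so the controls (EBd2 Dox and EBd3 Dox) carried it too, and what it drives is not said in the labels. The treated groups (EBd2 IAA and EBd3 IAA) also received IAA, a natural auxin, at 500 µM for 24 h. Embryoid bodies, floating aggregates in which stem cells start to differentiate, were grown in medium without leukaemia inhibitory factor at both stages. At which point of the culture IAA was added is not given in the sources used here, nor how many clones the line represents. It is also not stated that the 3 samples of each group came from different cultures, and p-values therefore cover only the spread between them, which may be technical. Of 35742 genes in the deposited tables, 21915 had a mean of at least 1 normalized count over the 12 libraries and were tested.

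BRD2 is one of the BET proteins, which bind acetylated lysines on histones through paired bromodomains and help recruit the transcription machinery. Its relative BRD3 is expressed in most cells, and BRDT is largely restricted to the testis. BET proteins act together with P-TEFb, the kinase that releases paused RNA polymerase II and that is held inactive in the 7SK complex by HEXIM proteins. In early embryoid bodies, cells leave naive pluripotency, pass through a formative state resembling the early post-implantation epiblast, and then begin to form germ layers.

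Depth differed between the days, with 11005217 to 15732767 reads in the day 2 libraries and 7819522 to 9416260 in the day 3 libraries. Mitochondrial transcripts held 0.831% to 0.892% of the reads in EBd2 Dox, 0.959% to 1.03% in EBd2 IAA, 1.14% to 1.19% in EBd3 Dox and 1.25% to 1.26% in EBd3 IAA. EBd2 Dox 3 stood apart from its group. In it, 282 of 11013 genes with a mean of at least 50 lay more than 0.5 (log2) from the mean of the other libraries of its group, against 46 to 221 genes in the other 11 libraries, with the next highest values in EBd3 IAA 3 and EBd3 IAA 2 (214). All 13 core pluripotency markers were detected in each group, and their summed level was 44295 to 61506 normalized counts, with ranges of 56963 to 59553 in EBd2 Dox and 44322 to 46442 in EBd3 Dox.

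Brd2 RNA itself was higher with IAA on both days. It was measured at 7550.4, 7595 and 7084 in the EBd2 Dox libraries and 12278, 11149 and 11463 in the EBd2 IAA libraries (normalized counts, that is, counts divided by the authors' size factor of the library). On day 3 the levels were 4128, 4551 and 4582 in the EBd3 Dox libraries and 6033, 5643 and 5619 in the EBd3 IAA libraries. IAA and Dox libraries did not overlap on either day, and every day 3 library was below every day 2 library. The log2 effect fell from 0.65 ± 0.04 (SE) on day 2 to 0.38 ± 0.04 on day 3. That difference of -0.27 ± 0.06 passed the test (limma, Benjamini-Hochberg adjusted p = 0.0081, as for all adjusted p-values below). RNA levels do not measure the degradation of the protein. Differences for Brd3 and Brdt did not pass the test, with adjusted p = 0.89 for Brd3 and 0.94 for Brdt.

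Hexim1, which encodes the inhibitor of P-TEFb, rose on both days. Its levels were 1404, 1343 and 1334 in the EBd2 Dox libraries and 2227, 2237 and 2178 in the EBd2 IAA libraries. They were 493, 566 and 541 in the EBd3 Dox libraries and 836, 780.3 and 922 in the EBd3 IAA libraries, again with no overlap between IAA and Dox. The effects of 0.70 ± 0.06 and 0.66 ± 0.06 differed by -0.04 ± 0.08, which did not pass the test (adjusted p = 0.86). Of 21 P-TEFb and 7SK genes measured, 2 had a difference called above 0 and 3 below 0, against 2.95% and 4.09% of all tested genes. Here and for the lists below, the shares over all tested genes are not matched for level. Calls above and below 0 made up 0.590% and 0.302% of genes with a mean of 1 to 10. They made up 4.92% and 7.62% at 100 to 1000, and 4.84% and 9.13% over 1000. Larp7, which stabilizes 7SK RNA, and Aff1, a scaffold of the super elongation complex, fell less on day 3 than on day 2: Larp7 (-0.86 and -0.40, difference 0.46, adjusted p = 7.5e-05) and Aff1 (-0.90 and -0.34, difference 0.56, adjusted p = 0.0015) (log2 effects on day 2 and day 3). Ell2, an elongation factor, rose on day 2, and its day 3 effect did not pass the test, with 0.58 on day 2 and 0.03 on day 3 (difference -0.54, adjusted p = 3.3e-05). Mllt3, a reader of acylated histones in the same complex, rose on day 2 and fell on day 3, with 0.64 on day 2 and -0.47 on day 3 (adjusted p = 0.00019 for the difference). The other call below 0 was Mepce, which caps 7SK RNA (0.43 on day 2 and 0.09 on day 3), and it was lost without EBd2 Dox 1, EBd2 Dox 2, EBd2 IAA 1, EBd3 Dox 2, EBd3 IAA 1 or EBd3 IAA 2 (adjusted p 0.055 to 0.082).

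Between the control groups, 4796 genes (21.9%) were higher and 5508 (25.1%) lower in EBd3 Dox than in EBd2 Dox, together 47.0% of those tested. The IAA effects use the same controls. Across all genes the IAA effect was broader on day 2. With IAA, 2821 genes (12.9% of those tested) were called higher and 3218 (14.7%) lower on day 2, together 27.6%. On day 3 these were 927 (4.23%) and 1541 (7.03%), together 11.3%. With DESeq2 the day 3 calls were 818 higher and 881 lower, a more even split. The order of the day 2 counts depended on the method. Higher calls were the more numerous with DESeq2 (2661 against 2598), edgeR (3463 against 3418) and TMM scaling (3164 against 2883). Under every other alternative, lower calls stayed the more numerous on day 2. The effect itself differed between the days for 1543 genes (7.04%), of which 647 (2.95%) had a difference above 0 and 896 (4.09%) below 0. Without EBd2 Dox 3, 1968 genes differed. Of the 2821 genes higher on day 2, 21.9% were also called higher and 2.13% lower on day 3. Of the 3218 genes lower on day 2, 26.7% were also lower on day 3 and 0.622% higher. Read from the other day, 66.6% of the 927 genes higher on day 3 were higher on day 2, and 55.7% of the 1541 lower on day 3 were lower on day 2. The 931 genes that fell at least 2-fold on day 2 had a median log2 effect of -1.46 on that day and -0.54 on day 3. The 175 that rose at least 2-fold had medians of 1.25 and 0.24. Genes chosen by their value on one day tend by that choice alone to have a smaller value on the other. Chosen by day 3, the 359 genes that fell at least 2-fold on day 3 had medians of -1.45 on day 3 and -0.77 on day 2. The 48 that rose at least 2-fold on day 3 had medians of 1.63 on day 3 and 0.17 on day 2. Over 11013 genes with a mean of at least 50, the 2 effects had a Pearson correlation of 0.59, given as a description since genes are not independent.

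The 1543 genes fell into 6 classes by the sign and the day of the larger effect. In 629 the rise was larger on day 2 and in 570 the fall was larger on day 2. A fall larger on day 3 was seen in 207 genes and a rise larger on day 3 in 57. In these classes the daily effects themselves need not have passed the test. Another 60 genes rose on day 2 and fell on day 3, both past the test, and 20 fell on day 2 and rose on day 3. The 60 were 39 without EBd2 Dox 2, 37 without EBd2 IAA 1 and 36 without EBd3 Dox 2. The 20 were 10 without either EBd3 Dox 2 or EBd3 IAA 1.

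**Figure D1:**
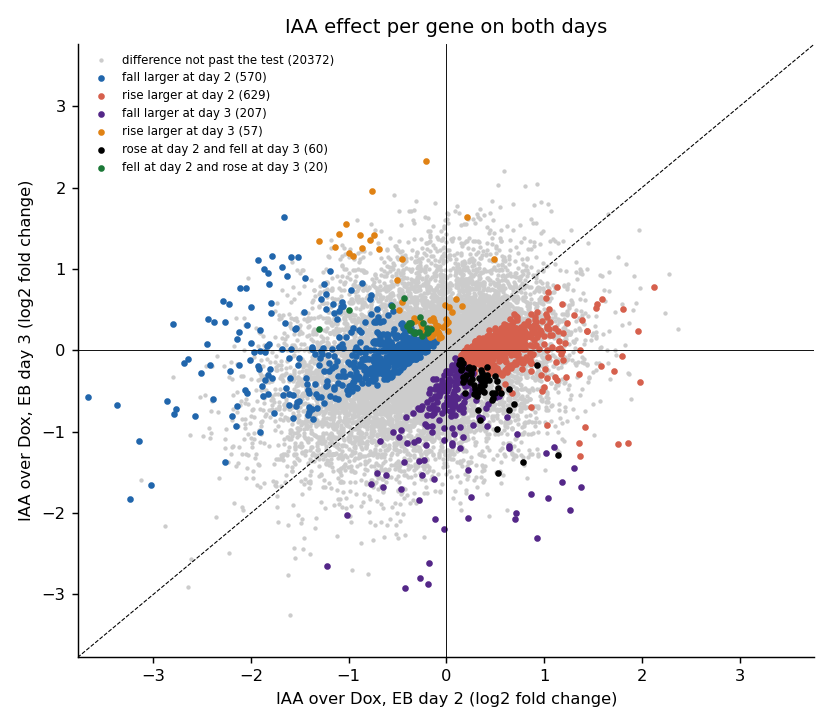
Log2 fold change of IAA over Dox on embryoid body day 2 (x axis) and day 3 (y axis) for the 21915 tested genes, 1 point a gene. Grey points did not pass the test of the difference, colours mark the 6 classes of the 1543 that did, and the dashed line marks equal effects; most coloured points lie along the x axis, where the day 2 effect is the larger.

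The genes leading each class below are the named genes with the largest differences among those that reached 5 CPM in their highest group. Among genes whose fall was larger on day 2, these were Foxn4, Vwa3b, Ttn, Platr13 and Ido2. Foxn4, a forkhead transcription factor (chr5:114254164-114273807, mm10), was at 205, 259 and 261 in the EBd2 Dox libraries and 58.3, 48.7 and 53.7 in the EBd2 IAA libraries. On day 3, Foxn4 was at 36.8, 30.9 and 32.9 in the EBd3 Dox libraries and 36.1, 48.5 and 28.7 in the EBd3 IAA libraries. The groups were apart on day 2 and overlapped on day 3, when all libraries were below those of day 2. For Foxn4 the log2 effect was -2.15 on day 2 and 0.14 on day 3, which differ by 2.29 ± 0.24 (adjusted p = 4.2e-07). Ttn, the gene of the giant muscle protein titin (chr2:76703980-76982547), dropped from 1161, 1013 and 969.6 to 116, 115 and 121 on day 2 and from 95, 136 and 128 to 56.8, 34.8 and 79.6 on day 3. It fell on both days, by 3.14 and 1.12 on the log2 scale, and the difference was 2.03 ± 0.24 (adjusted p = 2.2e-06). Ido2, an enzyme of tryptophan breakdown, had effects of -1.82 on day 2 and 0.08 on day 3 (difference 1.90 ± 0.26, adjusted p = 1.6e-05). Platr13, a long noncoding transcript named for its link with pluripotency, had -2.21 on day 2 and -0.25 on day 3 (adjusted p = 0.00024). For Vwa3b the values were -2.77 on day 2 and -0.72 on day 3 (adjusted p = 0.0096), with at most 17 normalized counts in any day 3 library.

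Among genes whose rise was larger on day 2, Abat, St6gal2, Pax6, Atf5 and Sned1 led. Pax6, a transcription factor of neural and eye development (chr2:105668900-105697364), was at 93.1, 103 and 106 in the EBd2 Dox libraries and 249.9, 278 and 256 in the EBd2 IAA libraries. On day 3 its levels were 248, 241 and 260.0 in the EBd3 Dox libraries and 254, 236 and 264 in the EBd3 IAA libraries. The 3 control libraries of day 2 were the low ones, and the other 9 libraries lay between 236 and 278. With log2 effects of 1.37 on day 2 and 0.01 on day 3, Pax6 had a difference of -1.36 ± 0.13 (adjusted p = 5e-08). Atf5, a bZIP transcription factor of the stress response (chr7:44812256-44816658), behaved otherwise in its controls. It was at 776, 799 and 780.1 in the EBd2 Dox libraries and 3479, 3301 and 3469.5 in the EBd2 IAA libraries, and at 619, 715 and 658 in the EBd3 Dox libraries and 1246, 914 and 1305 in the EBd3 IAA libraries. Every IAA library was above every Dox library on both days, by 2.12 and 0.78 (log2), a difference of -1.34 ± 0.11 (adjusted p = 8.6e-09). Sned1, a matrix protein gene, had effects of 1.19 on day 2 and -0.12 on day 3 (adjusted p = 2.4e-05). Abat, which encodes GABA transaminase, and St6gal2, a sialyltransferase, were low: their effects were 0.86 on day 2 and -0.70 on day 3 and 0.98 on day 2 and -0.50 on day 3 (adjusted p = 0.0051 and 0.0041).

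A rise larger on day 3 was led by Rgma, Dok1, Bcan, Nuak2 and Dusp4. Dusp4, a phosphatase that switches off MAP kinases (chr8:34807297-34819894), was at 813, 784 and 669.6 in the EBd2 Dox libraries and 1106, 1043 and 1029 in the EBd2 IAA libraries. A day later, Dusp4 was at 553, 543 and 569 in the EBd3 Dox libraries and 1210.3, 1469 and 1004 in the EBd3 IAA libraries, with no overlap on either day. The log2 effect of Dusp4 was 0.49 on day 2 and 1.13 on day 3, a difference of 0.64 ± 0.12 (adjusted p = 0.0011). Rgma, a co-receptor for bone morphogenetic proteins, had 62.9, 56.7 and 49.5 against 42.4, 35.2 and 40.4 normalized counts on day 2 (Dox against IAA), and 19, 27.7 and 25.5 against 49, 42.2 and 41.4 on day 3. Its IAA libraries were all below Dox on day 2 and all above Dox on day 3, although the day 2 effect of -0.51 did not pass the test (adjusted p = 0.053). Its difference was 1.37 ± 0.28 (adjusted p = 0.0018). The differences were 1.05 ± 0.25 for the adaptor gene Dok1 and 0.73 ± 0.19 for the kinase gene Nuak2 (adjusted p = 0.0087 and 0.014). Dok1 had effects of -0.46 on day 2 and 0.60 on day 3, and Nuak2 of -0.33 and 0.40. In both, only the day 3 effect passed the test. Bcan, the proteoglycan brevican, had -0.48 on day 2 and 0.49 on day 3, neither past the test (adjusted p = 0.091 and 0.14). Its difference was 0.97 ± 0.30 (adjusted p = 0.043). That call was lost without EBd2 Dox 1, EBd2 Dox 2, EBd2 Dox 3, EBd2 IAA 1, EBd2 IAA 3, EBd3 Dox 1, EBd3 Dox 2 or EBd3 IAA 1 (adjusted p 0.052 to 0.14).

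Tdh, Icam1, Lifr, Dsg2 and Cpt1a led the 20 genes that fell on day 2 and rose on day 3. Tdh, the threonine dehydrogenase on which mouse embryonic stem cells depend (chr14:63492347-63509092), was at 1942, 1901 and 1732 in the EBd2 Dox libraries and 722, 769 and 755 in the EBd2 IAA libraries. The day 3 levels of Tdh were 411, 452 and 535 in the EBd3 Dox libraries and 572, 560.4 and 536 in the EBd3 IAA libraries. The day 2 controls were far above all other libraries, and on day 3 every IAA library was above every Dox library. For Tdh the log2 effect was -1.31 on day 2 and 0.26 on day 3, which differ by 1.57 ± 0.10 (adjusted p = 4.1e-11). Lifr, a subunit of the receptor for leukaemia inhibitory factor (chr15:7090614-7197489), went from 188, 215 and 191 to 152, 133 and 154 on day 2 and from 121, 120.3 and 110.4 to 172, 211 and 171 on day 3. Its groups were apart on both days, in opposite order, and the effects of -0.43 and 0.64 differed by 1.08 ± 0.15 (adjusted p = 2.1e-05). The adhesion gene Icam1 had -0.55 on day 2 and 0.55 on day 3 (adjusted p = 6.9e-05). The desmosomal cadherin gene Dsg2 had -0.38 on day 2 and 0.34 on day 3 (adjusted p = 8.6e-06). For Cpt1a, which admits fatty acids into mitochondria, the effects were -0.41 on day 2 and 0.30 on day 3 (adjusted p = 0.0011).

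The opposite order, a rise on day 2 and a fall on day 3, was led by Gpm6a, Slc4a4, Reln, Gpm6b and Klf12. Gpm6a, a neuronal membrane glycoprotein gene (chr8:54954843-55060871), was at 30.2, 46.3 and 35.9 in the EBd2 Dox libraries and 54.7, 49.6 and 56.3 in the EBd2 IAA libraries. On day 3, Gpm6a was at 66.5, 83 and 74.3 in the EBd3 Dox libraries and 24.5, 27.3 and 24.4 in the EBd3 IAA libraries. IAA libraries lay above Dox libraries on day 2 and below them on day 3, without overlap. With log2 effects of 0.52 on day 2 and -1.51 on day 3, Gpm6a had a difference of -2.04 ± 0.26 (adjusted p = 7.1e-06). Slc4a4, a sodium bicarbonate cotransporter gene (chr5:88886818-89239653), was at 85.5, 85.1 and 92.6 in the EBd2 Dox libraries and 146, 118 and 116 in the EBd2 IAA libraries, and at 148, 163 and 132 in the EBd3 Dox libraries and 78.7, 65.9 and 80.7 in the EBd3 IAA libraries. It followed the same order with no overlap, and its difference was -1.48 ± 0.18 (adjusted p = 3e-06). Reln, the secreted guidance protein reelin (chr5:21884454-22344702), had effects of 0.64 on day 2 and -0.74 on day 3 (difference -1.38 ± 0.27, adjusted p = 0.0014), and its day 3 groups overlapped. For Gpm6b, the X-linked relative of Gpm6a, and Klf12, a Krüppel-like repressor, the differences were -1.34 ± 0.25 and -1.20 ± 0.17 (adjusted p = 0.001 and 2.1e-05).

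Genes of this class and of the class with a larger fall on day 3 tended to have a long genomic span, the distance from the first to the last base of the gene in the annotation. The median span was 196 kb in the 60 genes that rose and then fell and 265 kb in the 207 whose fall was larger on day 3. It was 28.9 kb in the 629 whose rise, and 28 kb in the 570 whose fall, was larger on day 2, and 13.6 kb in genes without a called difference. Of 2278 tested genes over 100 kb, 307 (13.5%) had a difference called below 0, against 178 of 9086 genes (1.96%) up to 10 kb, 181 of 5764 (3.14%) from 10 to 30 kb and 230 of 4759 (4.83%) from 30 to 100 kb. Calls above 0 showed no such gradient, with 3.07% over 100 kb and 1.74%, 3.64% and 4.39% in the shorter classes. Of the 207 genes with a larger fall on day 3, 158 exceeded 100 kb. This class held 6.94% of the tested genes over 100 kb and 0.945% of all tested genes. Of the 2278 genes over 100 kb, 695 were called lower and 28 higher on day 3. Over all 21915 tested genes, 1541 (7.03%) were called lower and 927 (4.23%) higher on that day. On day 2, 530 of the 2278 were called lower and 281 higher, where 3218 (14.7%) and 2821 (12.9%) of all tested genes were. Lower calls were thus more frequent in genes over 100 kb than over all tested genes on both days. Restricted to genes with a mean of at least 50, the share called below 0 was 19.9% over 100 kb and 5.93%, 4.79% and 6.66% in the shorter classes.

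The same was seen library by library. Over 1351 genes longer than 100 kb with a mean of at least 50, the median distance from the day 3 Dox mean was -0.17, -0.17 and -0.15 (log2) in the 3 EBd3 IAA libraries. In the EBd3 Dox libraries it was between -0.01 and 0.01. In the EBd2 IAA libraries the distance from the day 2 Dox mean was 0.01, -0.06 and -0.04, and EBd2 Dox 3 lay at -0.02. In the shorter classes the IAA libraries of both days lay between 0.00 and 0.04.

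**Figure D2:**
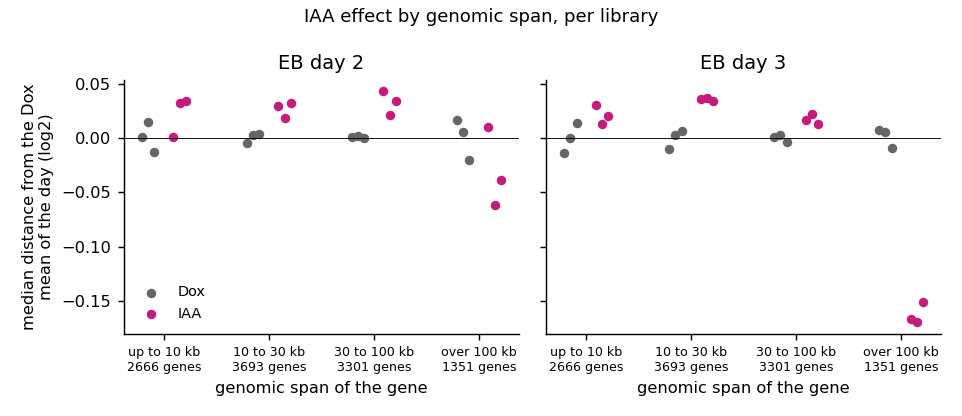
Median distance of the genes of a span class from the Dox mean of the same day (y axis, log2), by genomic span (x axis), over genes whose mean was at least 50. Each point is 1 library (grey Dox, pink IAA; 3 a group); the 3 EBd3 IAA points over 100 kb lie near -0.16 and all others between -0.06 and 0.04.

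Slit2, Hmcn1, Ptprt, Clic5 and Atp8a2 had the largest differences among genes whose fall was larger on day 3. Ptprt, a receptor tyrosine phosphatase gene of 1139 kb (chr2:161521990-162661147), was at 77.1, 66.2 and 64.6 in the EBd2 Dox libraries and 36.2, 24.4 and 27.8 in the EBd2 IAA libraries. A day later, Ptprt was at 45.1, 36.2 and 31.8 in the EBd3 Dox libraries and 6.45, 6.21 and 3.18 in the EBd3 IAA libraries. Both days showed lower IAA libraries without overlap, with effects of -1.22 on day 2 and -2.66 on day 3 (difference -1.44 ± 0.36, adjusted p = 0.012). Hmcn1, the gene of the matrix protein hemicentin (chr1:150562524-150993435), overlapped between groups on day 2, at 36.1, 35.9 and 43.8 and 31.8, 32.5 and 41.8. It was separate on day 3, at 96.2, 86.2 and 74.3 and 29.7, 21.1 and 34. The log2 effect of Hmcn1 was -0.13 on day 2 and -1.58 on day 3, a difference of -1.45 ± 0.28 (adjusted p = 0.0012). Slit2, a secreted axon guidance ligand (chr5:47983138-48307733), was above its day 2 controls (61.8, 56.8 and 47.1 against 25.2, 38.8 and 36.6), and its day 3 levels were 40.4, 41.5 and 37.1 in the EBd3 Dox libraries and 16.8, 9.94 and 39.3 in the EBd3 IAA libraries. EBd3 IAA 3 was within the Dox range and EBd3 IAA 1 and 2 were below it. The day 2 effect of 0.72 did not pass the test (adjusted p = 0.068), while that of -1.03 on day 3 did (adjusted p = 0.020). The difference for Slit2 was -1.75 ± 0.41 (adjusted p = 0.0077). Atp8a2, a lipid flippase gene, had -0.25 on day 2 and -1.53 on day 3 (adjusted p = 0.025), a call lost without EBd2 Dox 2, EBd2 IAA 1, EBd3 Dox 1 or EBd3 IAA 2 (adjusted p 0.063 to 0.093). Clic5, a chloride channel gene, had 0.42 on day 2 and -0.93 on day 3 (adjusted p = 0.027), lost without EBd2 Dox 1, EBd2 Dox 2, EBd2 IAA 2, EBd2 IAA 3, EBd3 Dox 1, EBd3 Dox 2 or EBd3 IAA 3 (adjusted p 0.051 to 0.12).

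**Figure D3:**
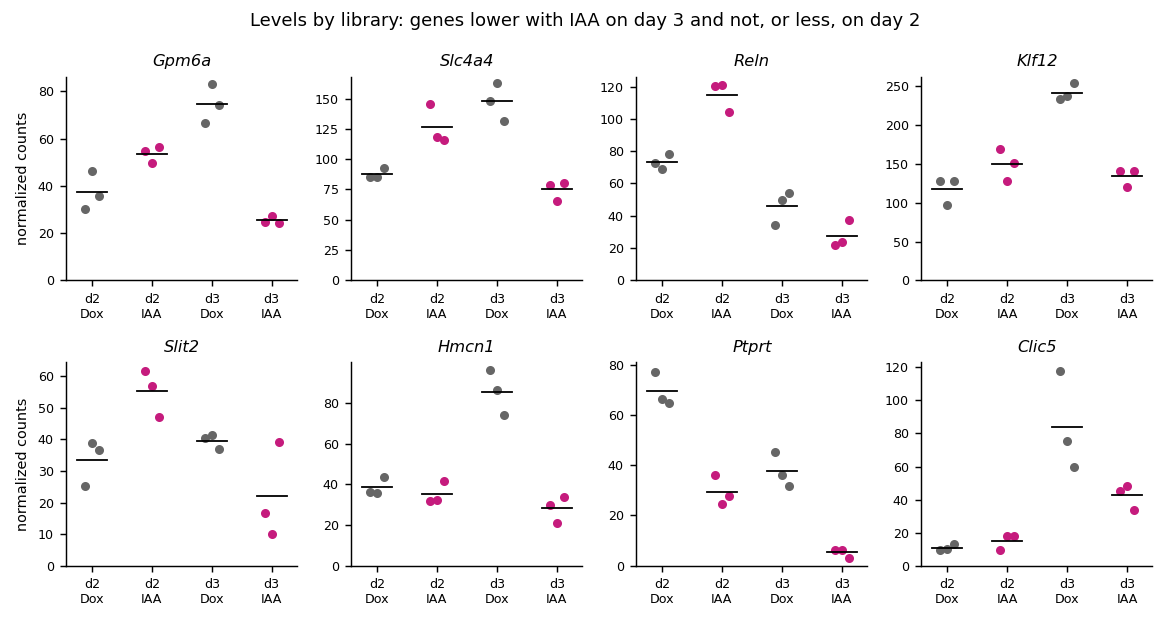
Normalized counts (y axis, from 0) by library in the 4 groups (x axis) for 8 genes that were lower with IAA on day 3 and less so, or higher, on day 2. Points are single libraries (grey Dox, pink IAA; 3 a group) and lines are group means; in Gpm6a, Slc4a4 and Klf12 the pink points lie above the grey ones, or overlap them, on day 2 and below them on day 3.

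Genes of cholesterol synthesis, the pathway from acetyl-CoA through mevalonate and squalene, had the largest share of called differences among lists with at least 10 measured members. Of 24 measured members, 16 had a difference below 0 and 1 above 0, against 4.09% and 2.95% of all tested genes, and the median difference was -0.48 (0.01 over all genes). On day 2, 11 members rose and 1 fell, where 12.9% of all tested genes rose and 14.7% fell. On day 3, none rose and 13 fell, where 4.23% of all rose and 7.03% fell. The median IAA effect over the 24 members went from 0.21 to -0.28. By library, the median distance from the day 2 Dox mean was 0.16, 0.12 and 0.25 in EBd2 IAA, and from the day 3 Dox mean -0.25, -0.11 and -0.36 in EBd3 IAA. Dox libraries lay between -0.06 and 0.05. The controls themselves moved, since the median member was 1.00 (log2) higher in EBd3 Dox than in EBd2 Dox.

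Msmo1, a sterol demethylation enzyme (chr8:64718139-64733792), was at 314, 308 and 374 in the EBd2 Dox libraries and 458, 455 and 493 in the EBd2 IAA libraries. The day 3 levels of Msmo1 were 1522, 1455 and 1391 in the EBd3 Dox libraries and 1178, 1241 and 1085 in the EBd3 IAA libraries. IAA libraries were all above Dox on day 2 and all below Dox on day 3. For Msmo1 the log2 effect was 0.50 on day 2 and -0.32 on day 3, which differ by -0.82 ± 0.10 (adjusted p = 2.2e-06). Hmgcs1, the synthase that starts the mevalonate route (chr13:119690379-119708260), was at 646, 720.2 and 876 in the EBd2 Dox libraries and 934, 801 and 1069.9 in the EBd2 IAA libraries. These groups overlapped, while on day 3 they did not, at 3431, 3449.8 and 3073 in the EBd3 Dox libraries and 2417, 2482 and 2090.2 in the EBd3 IAA libraries. The effects of 0.32 and -0.51 differed by -0.84 ± 0.12 (adjusted p = 4.5e-05). Cyp51, the lanosterol demethylase, had effects of 0.34 on day 2 and -0.34 on day 3 (adjusted p = 1.1e-05). Mvd, Idi1 and Mvk, which act between mevalonate and farnesyl diphosphate, rose on day 2 and fell on day 3 as well: Mvd (0.37 and -0.30, difference -0.67, adjusted p = 0.00022), Idi1 (0.25 and -0.30, difference -0.54, adjusted p = 0.0003) and Mvk (0.24 and -0.39, difference -0.63, adjusted p = 0.0016). Lss, which closes the sterol ring, did not change past the test on day 2 (605, 652 and 667 against 599.5, 589 and 627) and fell on day 3 (1422, 1383 and 1376 against 932, 1049 and 870.5). Its difference was -0.47 ± 0.09 (adjusted p = 0.0007), and Nsdhl had -0.54 ± 0.11 (adjusted p = 0.0026). Tm7sf2, a sterol reductase, and Insig1, which retains the SREBP pathway in the endoplasmic reticulum, rose on day 2 with no call on day 3: Tm7sf2 (0.88 and -0.05, difference -0.93, adjusted p = 0.00074) and Insig1 (0.42 and -0.20, difference -0.62, adjusted p = 0.0017). Ebp, a sterol isomerase, was the exception above 0 (-0.58 on day 2 and 0.01 on day 3, adjusted p = 0.027), a call lost without EBd2 Dox 2, EBd2 IAA 1, EBd3 Dox 3, EBd3 IAA 1 or EBd3 IAA 3 (adjusted p 0.057 to 0.097).

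**Figure D4:**
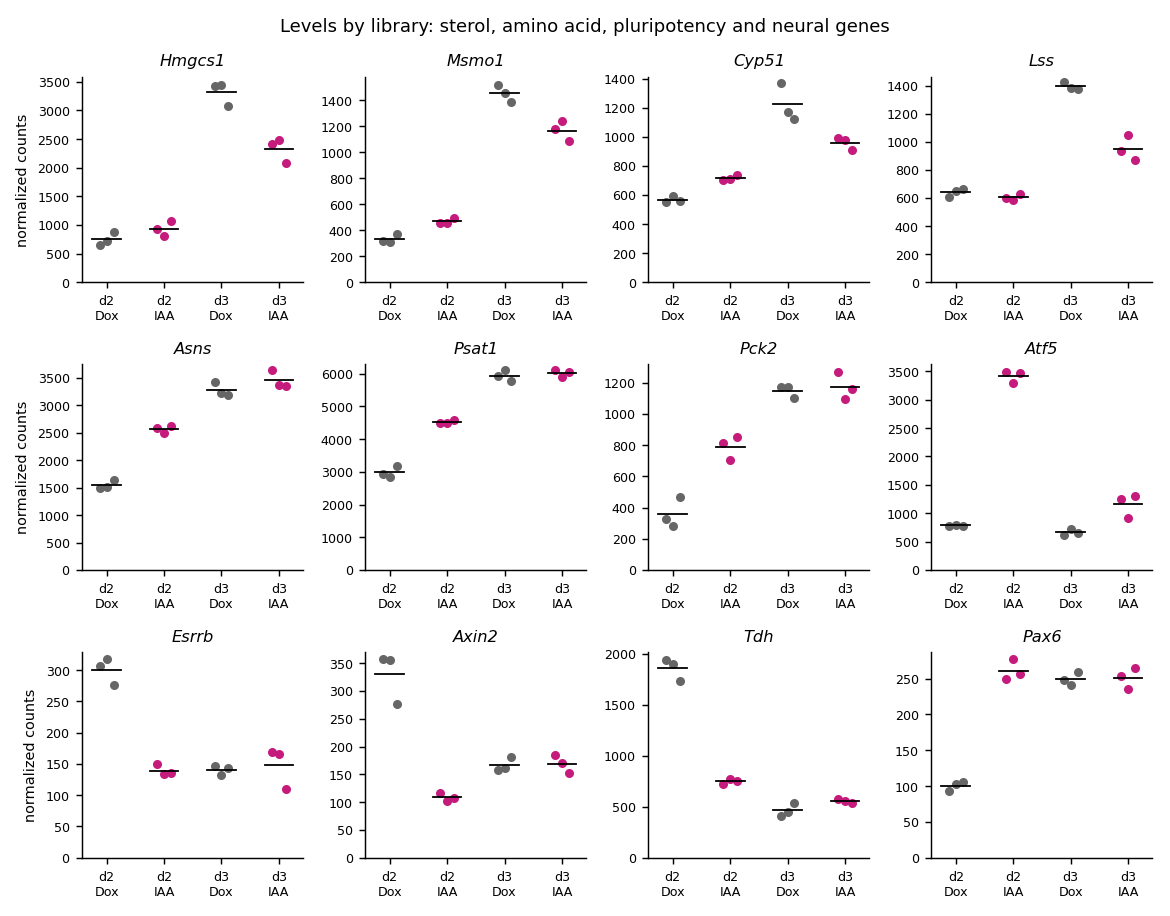
Normalized counts (y axis, from 0) by library in the 4 groups (x axis) for 4 sterol genes, 4 genes of the integrated stress response, and Esrrb, Axin2, Tdh and Pax6. Points are single libraries (grey Dox, pink IAA; 3 a group) and lines are group means; the pink points of the sterol genes lie below the grey ones on day 3, and in Asns, Psat1, Pck2, Esrrb, Axin2 and Pax6 the groups differ on day 2 and overlap on day 3.

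The integrated stress response raises genes of amino acid synthesis and uptake through the transcription factor ATF4, which binds composite C/EBP-ATF elements. Of 27 measured genes of the response, 16 had a difference below 0 and none above 0 (4.09% and 2.95% of all tested genes). On day 2, 18 rose and 1 fell (12.9% and 14.7% of all), and on day 3, 1 rose and 2 fell (4.23% and 7.03% of all). The median effect was 0.40 on day 2 and 0.02 on day 3. By library it was 0.37, 0.43 and 0.41 in EBd2 IAA and 0.07, 0.01 and 0.02 in EBd3 IAA, with all Dox libraries between -0.04 and 0.04. For Atf4 itself, the difference was -0.14 (adjusted p = 0.27). Asns, asparagine synthetase (chr6:7675169-7693254), was at 1494, 1514 and 1632 in the EBd2 Dox libraries and 2595, 2502 and 2618 in the EBd2 IAA libraries. On day 3, Asns was at 3421, 3219 and 3184 in the EBd3 Dox libraries and 3639.9, 3372 and 3361 in the EBd3 IAA libraries. The day 2 groups were apart, the day 3 groups overlapped, and both lay above all day 2 libraries. With log2 effects of 0.73 on day 2 and 0.08 on day 3, Asns had a difference of -0.66 ± 0.07 (adjusted p = 1.5e-07). Psat1 and Phgdh, which make serine, had Psat1 (0.60 and 0.02, difference -0.58, adjusted p = 1.5e-07) and Phgdh (0.56 and 0.07, difference -0.48, adjusted p = 1.6e-06). Pck2, the mitochondrial PEP carboxykinase, was at 329.5, 283 and 469 in the EBd2 Dox libraries and 812, 707 and 853 in the EBd2 IAA libraries, and at 1169, 1169.8 and 1100.5 in the EBd3 Dox libraries and 1268, 1096 and 1158 in the EBd3 IAA libraries. Its day 2 groups were apart, with EBd2 Dox 3 the highest control, and its difference was -1.13 ± 0.15 (adjusted p = 8.6e-06). Chac1, a glutathione-degrading enzyme, was at 161, 135 and 324 in EBd2 Dox, where EBd2 Dox 3 was again the highest, and at 455, 446 and 441 in EBd2 IAA. Its effects were 1.22 on day 2 and 0.09 on day 3 (adjusted p = 0.0027). The amino acid transporter gene Slc7a3 had 0.53 on day 2 and 0.11 on day 3 (adjusted p = 2.4e-05), and the lipoprotein receptor gene Vldlr 1.00 on day 2 and 0.08 on day 3 (adjusted p = 0.0094).

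The aminoacyl-tRNA synthetases, many of them ATF4 targets, had called differences of the same sign. Of 20, 10 had a difference below 0 and none above 0, beside 4.09% and 2.95% of all tested genes. On day 2, 11 rose and none fell (12.9% and 14.7% of all), while on day 3, 1 rose and 2 fell (4.23% and 7.03%). Their median effect was 0.15 to 0.16 in the EBd2 IAA libraries and -0.04 to -0.03 in the EBd3 IAA libraries. Nars, the asparaginyl enzyme, was at 3257, 3205 and 3230.3 in the EBd2 Dox libraries and 4223, 4373 and 4443 in the EBd2 IAA libraries. It was at 4822, 4991 and 4890.0 in the EBd3 Dox libraries and 4988, 4864 and 5179 in the EBd3 IAA libraries, so that the groups were apart on day 2 and overlapped on day 3. The difference was -0.40 ± 0.05 (adjusted p = 1.8e-05). Gars, the glycyl enzyme, had 0.23 on day 2 and -0.05 on day 3 (adjusted p = 0.00053), and Iars, the isoleucyl enzyme, 0.23 on day 2 and -0.05 on day 3 (adjusted p = 0.00074).

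Promoters of these genes were searched on both strands for TGATGNAA, the core of the C/EBP-ATF element, in the 250 bases before each gene start in a RefSeq table (GRCm38.p6). The table lists more than 1 start for some genes, and a RefSeq start can lie inside the span given by the annotation used for positions. With a match before any listed start counted, it was present in 8 of 23 genes of the integrated stress response with a promoter in the table and in 3 of 12 aminoacyl-tRNA synthetases, against 3.91% of 27025 genes and 3.45% of 32851 promoters. With only the RefSeq start nearest to the annotated start, these were 7 of 23 and 3 of 12, against 2.05% of 13591 tested genes. A match is a description of these letters and not a measured binding site. The stretches below are shown because they carry the match in genes whose day 2 rise was larger; each runs 5′ to 3′ on the gene's strand with the match in capitals, which begins with TT where it lies on the other strand.
Chac1 (chr2:119351038-119351067, + strand): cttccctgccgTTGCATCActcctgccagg
Asns (chr6:7693214-7693243, - strand): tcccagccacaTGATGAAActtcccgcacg
Pck2 (chr14:55540152-55540181, + strand): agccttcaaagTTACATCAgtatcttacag
Tars (chr15:11399659-11399684, - strand): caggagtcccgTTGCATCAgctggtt

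The match ended 185 bases before the RefSeq start in Chac1, 95 in Pck2 and 15 in Asns. These RefSeq starts lay 13, 0 and 45 bases inside the annotated start, so that the match of Asns is within its annotated span. The RefSeq start of Tars, the threonyl enzyme, lay 7 bases inside, and its difference was -0.25 ± 0.06 (adjusted p = 0.0088).

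Genes of hypoxia and glycolysis, which hypoxia-inducible factor drives through the element ACGTG, more often rose than fell with IAA on both days. Of 31 measured members, 9 had a difference below 0 and 1 above 0, against 4.09% and 2.95% of all tested genes. On day 2, 17 rose and 1 fell (12.9% and 14.7% of all), and on day 3, 10 rose and none fell (4.23% and 7.03% of all). The EBd3 IAA libraries differed among themselves: the median distance of the list from the Dox mean was 0.13, 0.31 and -0.05 in EBd3 IAA 1, 2 and 3, against 0.26 to 0.29 in the EBd2 IAA libraries. Without EBd3 IAA 2, 15 members had a difference below 0. The part of this spread in the result was not tested. Slc2a1, the glucose transporter GLUT1 (chr4:119108711-119137983), was at 1767, 1731 and 2279 in the EBd2 Dox libraries and 3648, 3692 and 4095 in the EBd2 IAA libraries. A day later, Slc2a1 was at 7476, 6335 and 6156 in the EBd3 Dox libraries and 7605, 8665 and 6387 in the EBd3 IAA libraries. The day 2 groups were apart, the day 3 groups overlapped, and day 3 libraries were all above day 2 libraries. The log2 effect of Slc2a1 was 0.99 on day 2 and 0.18 on day 3, a difference of -0.82 ± 0.12 (adjusted p = 5.3e-05). P4ha1, a collagen prolyl hydroxylase, was at 95.6, 79.4 and 102 in the EBd2 Dox libraries and 283, 253 and 266 in the EBd2 IAA libraries, and at 318, 247 and 267 in the EBd3 Dox libraries and 397, 504 and 309 in the EBd3 IAA libraries. The day 3 groups overlapped through EBd3 IAA 3 and EBd3 Dox 1, and the difference was -1.01 ± 0.18 (adjusted p = 0.00041). Pfkl, a phosphofructokinase, Tpi1, a triose phosphate isomerase, and Vegfa, an angiogenic ligand, had Pfkl (0.80 and 0.32, difference -0.48, adjusted p = 0.00066), Tpi1 (0.56 and 0.18, difference -0.38, adjusted p = 0.0014) and Vegfa (1.03 and 0.28, difference -0.75, adjusted p = 0.0008).

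The letters ACGTG, on either strand, were present in the 250-base window of any listed start of 19 of 29 genes of hypoxia and glycolysis, against 18.5% of all genes and 16.6% of all promoters. With only the nearest start this was 15 of 29, against 20.6% of tested genes. By any listed start it was 7 of 23 in the integrated stress response, 5 of 12 in the aminoacyl-tRNA synthetases and 4 of 16 in cholesterol synthesis. TGATGNAA was in 0 of the 29. Stretches from Slc2a1, whose RefSeq start lay 34 bases inside the annotated start, and P4ha1, where both starts are the same, show where it lies, with the match in capitals, which reads CACGT on the other strand.
Slc2a1 (chr4:119108698-119108724, + strand): tcccgccccggACGTGctccccaggcc
P4ha1 (chr10:59323269-59323295, + strand): gtgacagagcgCACGTagcgagggctg

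Markers of naive pluripotency, the state of the pre-implantation epiblast, more often fell than rose with IAA on day 2. Of 15 measured, 6 had a difference above 0 and 1 below 0, where the shares of all tested genes were 2.95% and 4.09%. On day 2, 1 rose and 8 fell (12.9% and 14.7% of all), and on day 3, 1 rose and 3 fell (4.23% and 7.03% of all). The median effect was -0.47 on day 2 and 0.04 on day 3. EBd2 Dox 3 stood toward the IAA libraries in this list, with a median distance of -0.19 from the Dox mean against 0.13 and 0.06 in Dox 1 and 2 and -0.25, -0.71 and -0.45 in EBd2 IAA. Without that library 8 members had a difference above 0. The count was 3 without EBd2 Dox 1, EBd2 IAA 2 or EBd3 Dox 3. In bulk RNA, fewer cells of a kind and less RNA per cell cannot be told apart. Esrrb, an orphan nuclear receptor of the naive network (chr12:86361117-86521628), was at 306, 319 and 276 in the EBd2 Dox libraries and 149, 134 and 136 in the EBd2 IAA libraries. The day 3 levels of Esrrb were 146, 132 and 144 in the EBd3 Dox libraries and 169, 165 and 109 in the EBd3 IAA libraries. Only the day 2 controls were high, and the day 3 groups overlapped. For Esrrb the log2 effect was -1.10 on day 2 and 0.04 on day 3, which differ by 1.14 ± 0.17 (adjusted p = 6.1e-05). Fbxo15, an F-box gene used as a stem cell reporter, fell on both days, with -1.11 on day 2 and -0.32 on day 3 (adjusted p = 0.00039). Nanog also fell on both days. It was at 469.5, 532 and 575 in the EBd2 Dox libraries and 253, 234 and 289.7 in the EBd2 IAA libraries, and at 2121, 1652 and 1756 in the EBd3 Dox libraries and 1203, 1603 and 1149.7 in the EBd3 IAA libraries, apart on both days and higher on day 3 in each group. Its difference of 0.53 ± 0.14 (adjusted p = 0.017) was lost without EBd2 IAA 2, EBd3 Dox 2, EBd3 Dox 3 or EBd3 IAA 2 (adjusted p 0.051 to 0.076). Gbx2, the member with a difference below 0, rose on both days (1.59 on day 2 and 0.63 on day 3, adjusted p = 0.028), and this call was lost without EBd2 Dox 3, EBd2 IAA 1, EBd2 IAA 2, EBd2 IAA 3, EBd3 Dox 1 or EBd3 IAA 2 (adjusted p 0.051 to 0.096).

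Markers of the formative epiblast more often rose than fell on day 2. Of 17, 8 had a difference below 0 and 2 above 0, against 4.09% and 2.95% of all tested genes. On day 2, 11 rose and 3 fell (12.9% and 14.7% of all), and on day 3, 1 rose and 1 fell (4.23% and 7.03% of all). The median effect was 0.36 on day 2 and -0.05 on day 3. By library it was 0.39, 0.32 and 0.36 in EBd2 IAA, -0.03, -0.09 and 0.04 in EBd3 IAA, and 0.12 in EBd2 Dox 3, the highest control. Tcf15, a bHLH factor of cells leaving the naive state (chr2:152143561-152149097), was at 162, 170.1 and 212 in the EBd2 Dox libraries and 629.6, 617 and 649.6 in the EBd2 IAA libraries. On day 3, Tcf15 was at 171, 178 and 187 in the EBd3 Dox libraries and 237, 246 and 283 in the EBd3 IAA libraries. IAA libraries were above Dox libraries on both days, by a log2 effect of 1.81 and 0.51. The difference was -1.29 ± 0.13 (adjusted p = 1.5e-07). Fgf5, the classical epiblast marker, was at 357, 383 and 469 in the EBd2 Dox libraries and 676, 650.4 and 679 in the EBd2 IAA libraries, and at 686, 708 and 695 in the EBd3 Dox libraries and 619, 615 and 715 in the EBd3 IAA libraries, with the groups apart on day 2 and overlapping on day 3. Its difference was -0.84 ± 0.11 (adjusted p = 7.1e-06). The de novo DNA methyltransferase genes Dnmt3a and Dnmt3b had Dnmt3a (0.36 and -0.24, difference -0.60, adjusted p = 5.6e-08) and Dnmt3b (0.42 and -0.04, difference -0.46, adjusted p = 4.2e-07), so that Dnmt3a reversed. Lef1, one of the 2 members above 0 (difference 0.50, adjusted p = 0.022), lost its call without EBd2 Dox 1, EBd2 Dox 2, EBd2 IAA 2, EBd3 Dox 3, EBd3 IAA 1 or EBd3 IAA 2 (adjusted p 0.057 to 0.095).

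Neuroectoderm markers had 5 of 20 members with a difference below 0 and 1 above 0, beside 4.09% and 2.95% of all tested genes. Beside Pax6 these included Nes and Tubb3, cytoskeletal genes of neural progenitors and neurons, and Sox1, with Nes (0.76 and 0.07, difference -0.69, adjusted p = 5e-07), Tubb3 (1.19 and 0.57, difference -0.61, adjusted p = 9.1e-05) and Sox1 (1.01 and -0.23, difference -1.24, adjusted p = 0.0025). The median difference of this list was 0.11, opposite in sign to most of its calls.

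Nodal signalling maintains the primed epiblast and patterns it through the ligands Nodal and Gdf3, the co-receptor Tdgf1 and the feedback inhibitors Lefty1 and Lefty2. The ligands and the co-receptor fell on both days. Gdf3 had effects of -1.55 on day 2 and -1.40 on day 3, Nodal of -0.85 on day 2 and -0.77 on day 3 and Tdgf1 of -0.46 on day 2 and -0.54 on day 3, each past the test on both days. Their differences were 0.15 ± 0.10, 0.08 ± 0.10 and -0.08 ± 0.05, with adjusted p = 0.45, 0.73 and 0.48. Of 18 members measured, 4 had a difference below 0 and none above 0 (4.09% and 2.95% of all tested genes). On day 2, 4 members rose and 7 fell (12.9% and 14.7% of all), and on day 3 none rose and 7 fell (4.23% and 7.03% of all). Lefty1 (chr1:180935022-180938400) was at 1688, 1605 and 1582 in the EBd2 Dox libraries and 931, 898 and 1159 in the EBd2 IAA libraries. A day later, Lefty1 was at 3276, 2724 and 2819.6 in the EBd3 Dox libraries and 1106, 909.5 and 1083 in the EBd3 IAA libraries, with no overlap on either day. With log2 effects of -0.71 on day 2 and -1.51 on day 3, Lefty1 had a difference of -0.79 ± 0.11 (adjusted p = 1.9e-05). For Lefty2 the effects were -1.05 on day 2 and -1.16 on day 3, and the difference did not pass the test (adjusted p = 0.66). Smad7, an inhibitory SMAD, rose on day 2 and fell on day 3 (0.29 on day 2 and -0.48 on day 3, adjusted p = 0.00012).

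In the Wnt list 4 of 23 members had a difference above 0 and none below 0 (2.95% and 4.09% of all tested genes). On day 2, 4 members rose and 9 fell (12.9% and 14.7% of all), and on day 3, 3 rose and 2 fell (4.23% and 7.03% of all). Axin2, a feedback target of beta-catenin (chr11:108920349-108950783), was at 357, 356 and 276 in the EBd2 Dox libraries and 116, 103 and 107 in the EBd2 IAA libraries. The day 3 levels of Axin2 were 158, 161 and 181 in the EBd3 Dox libraries and 185, 170.2 and 153 in the EBd3 IAA libraries. The day 2 groups were far apart, and the day 3 groups overlapped at levels between those of day 2. The log2 effect of Axin2 was -1.59 on day 2 and 0.02 on day 3, a difference of 1.61 ± 0.15 (adjusted p = 5.6e-08). The ligand gene Wnt5b had -2.14 on day 2 and -0.68 on day 3 (adjusted p = 0.0051). Among 25 p53 targets, 4 likewise had a difference above 0 and none below 0. Of these targets 2 rose and 11 fell on day 2, and 1 rose and 3 fell on day 3. Zmat3, a zinc finger target, had -0.85 on day 2 and -0.11 on day 3 (adjusted p = 8.5e-06), and Bax and Ckap2 had differences of 0.37 ± 0.08 and 0.46 ± 0.10 (adjusted p = 0.0053 and 0.0024). Bmf, a BH3-only gene of the BCL2 family, was at 179, 183 and 183 in the EBd2 Dox libraries and 389, 411 and 412 in the EBd2 IAA libraries, and at 481, 433 and 368 in the EBd3 Dox libraries and 446, 478 and 451 in the EBd3 IAA libraries. Its groups were apart on day 2 and overlapped on day 3 (difference -1.04 ± 0.11, adjusted p = 6.2e-07). Of 14 mitochondrial transcripts, 5 had a difference below 0 and none above 0, with 11 higher on day 2 and 6 on day 3. Among all tested genes these shares were 4.09%, 2.95%, 12.9% and 4.23%.

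**Figure D5:**
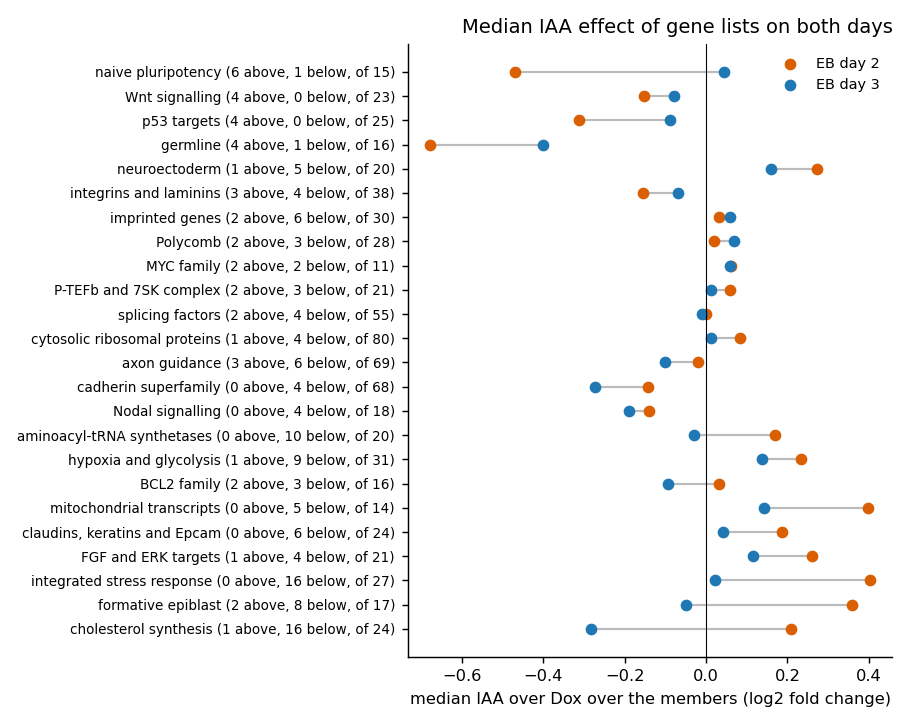
Median log2 fold change of IAA over Dox over the measured members of each list (x axis) on day 2 (orange) and day 3 (blue), for the lists (y axis) with at least 10 measured members and 4 called differences. Labels give the members with a difference called above and below 0; the cholesterol synthesis median goes from 0.21 to -0.28 and the naive pluripotency median from -0.47 to 0.04.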

How the data were processed

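Total RNA of the 24 samples was sequenced, and 12 samples, EBd2 and EBd3 with Dox or with IAA, 3 each, were used here. Per the submitters' processing notes, the tools were STAR 2.5.3a, featureCounts 1.5.2 and DESeq2, on mm10. Strandedness and the annotation are not given in the sources used here. The authors deposited 1 table per stage. The signal values that the authors deposited are counts per gene, which they divided by 1 size factor per library. Dividing by the value of 1 read gave whole reads for 100% of positive values (within 1e-06). The deposited mean equals that of all 24 libraries, so the tables share their scaling and can be compared. The deposited log2 fold changes, the Wald score and the p-value columns, named so per the file headers, were not used.

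The EBd2 and EBd3 tables were joined by gene ID. Of 35742 genes, 14339 have no symbol (1.20% to 1.32% of reads), and 35652 were found in GENCODE M21 (GRCm38), which gave positions and spans. The main test was limma 3.58.1 (R 4.3.3, trend) on log2 of the value plus 1, so fold changes of low genes are understated. Genes with a mean of at least 1 over the 12 libraries were fitted in 1 model, with Benjamini-Hochberg adjustment over all of them and a threshold of 0.05. Since the values are normalized, edgeR 4.0.16 and DESeq2 1.42.0 were run on recovered reads as alternatives. The other alternatives were pseudocounts of 0.5 and 5, no filter and a mean of at least 10, TMM scaling, reads thinned to the smallest library, all 24 libraries, a replicate block and leaving out each library. The test was also run on simulated counts, with the spread estimated from these libraries. Such counts cannot show whether that spread is technical.

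Named genes were the 5 with the largest difference in each class (adjusted p below 0.05 and at least 5 CPM in the highest group, without Gm, Rik, pseudogene and unnamed entries), from each list the 3 called members of lowest adjusted p, and the BET and P-TEFb genes; some of these are not reported here. Other list members, the lists described at length, the span classes, the motifs and promoters shown and the motif count by nearest start were chosen after their values were seen. The comparison and all gene lists were chosen with earlier results of these data known, so a list's direction is not independent evidence. Of 784 list symbols, 7 were not found. No pair of libraries within a group agreed within sampling noise (chi-square over its degrees of freedom, 1.26 to 4.49).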

Additional observations from a re-analysis of the deposited data

Results flagged for a closer look

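Opposite effects on the 2 days were found for 60 genes that rose on day 2 and fell on day 3 and for 20 that fell and then rose, all with a difference past the test of the difference itself (limma). The largest of the first kind were Gpm6a (-2.04), Slc4a4 (-1.48), Reln (-1.38), Gpm6b (-1.34) and Klf12 (-1.20). The largest of the second kind were Tdh (1.57), Icam1 (1.10), Lifr (1.08), Dsg2 (0.73) and Cpt1a (0.71), all as log2 differences.

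The effect also differed between the days in 6 gene lists, picked after their counts were seen. Differences below 0 were called for 16 members of cholesterol synthesis, 16 of the integrated stress response, 10 aminoacyl-tRNA synthetases, 9 genes of hypoxia and glycolysis and 8 formative epiblast markers. Differences above 0 were called for 6 naive pluripotency markers. Over all tested genes, 4.09% had a difference below 0 and 2.95% above 0. Among tested genes with a mean of at least 50, these shares were 7.48% and 4.76%.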

How the results depend on the processing

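The number of genes whose effect differed between the days, 1543, was 1198 (DESeq2) to 1696 (a mean of at least 10) under the alternatives that keep all libraries, and 1082 to 1968 when 1 library was left out. The edgeR test called 1590 genes, of which 1460 were shared, 94.6% of the 1543. Counts for day 2 alone were 5259 to 6881 and 4743 to 6332, and for day 3 alone 1699 to 2600 and 1681 to 2913. Differences below 0 over 100 kb numbered 250 to 336 and 236 to 346, against 307. With DESeq2, 37 genes rose and then fell (60), 12 fell and then rose (20, and 13 with thinned reads), and 3 naive markers were called (6). Leaving out 1 library, these counts were 36 to 67, 10 to 29 and 3 to 8. That of hypoxia and glycolysis (9) was 7 to 15, with 15 without EBd3 IAA 2. The cause was not tested. Of 165 genes examined singly with a called difference, 118 kept the call under every alternative and none changed sign. Uncalled differences changed sign for Brd3 (-0.017 to 0.075), Brdt (-0.052 to 0.20) and Hexim1 (-0.103 to 0.018) when 1 library was left out. Same-numbered samples did not visibly deviate together (r from -0.064 to 0.084 over 18 pairs). Different-numbered samples of the same stage had r from -0.105 to 0.100. With 3 libraries a group this cannot exclude a pairing by number, and the labels do not state one. With the replicate number as a block within each stage, 1669 genes differed, and with a block shared by both stages 1455. Depth was lower on day 3. With reads thinned to the smallest library, 1255 genes differed between the days. That setting called 2627 genes higher and 2869 lower on day 2, and 733 higher and 1194 lower on day 3. Of 7284 tested genes with a mean of 1 to 10, 15 (0.206%) had a larger fall on day 3, against 0.945% of all tested genes. The part of depth in the calls of low genes was not tested.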
